A study of Mus musculus with 12 samples.

Results

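The genes described here are 10 members of the mouse circadian clock and its direct outputs, out of 28991 genes in the count table: the activators Arntl (also called Bmal1) and Npas2, the repressors Per1, Per2, Per3, Cry1 and Cry2, the nuclear receptor Nr1d1, and the output transcription factors Dbp and Hlf. They were chosen by name, with earlier results of these data known, by matching their Ensembl identifiers to gene symbols, and all 10 were found and passed the filter on low counts that left 20370 genes for testing. RNA was sequenced from kidneys of male BALB/c mice, an inbred strain, aged 8 weeks, with 3 mice in each of 4 treatment groups and all agents given by intraperitoneal injection. The saline group received saline daily for 6 days, and the dichloroacetate group received dichloroacetate, an inhibitor of the kinases that restrain pyruvate dehydrogenase, at 250 mg/kg daily for 6 days. The cisplatin group received saline daily for 5 days and then a single dose of 20 mg/kg cisplatin, a platinum compound that crosslinks DNA and injures the renal tubule. The combination group received dichloroacetate at 250 mg/kg for 5 days and then the same cisplatin dose together with dichloroacetate. Mice given cisplatin were killed 24 h later. The series' title puts the question as whether dichloroacetate prevents the kidney toxicity of cisplatin.

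The clock is a transcriptional loop that runs in nearly every cell. Arntl pairs with Clock or with Npas2 and binds E-box sequences to activate the Per, Cry, Nr1d1 and Dbp genes; Per and Cry proteins return to the nucleus and repress that activity; Nr1d1 represses Arntl and Npas2 through sites shared with the Ror receptors. Dbp, Hlf and their relative Tef activate genes through D-box sequences, and Nfil3 represses through the same sites. In the kidney these factors are known to set daily rhythms of tubular transport and drug handling. Because the transcripts peak at different hours, with Arntl and Npas2 roughly opposite to Dbp, the hour of collection matters: the sources used here do not give it, each mouse gives a single time point, and a change in the level of a transcript and a shift in its daily phase cannot be told apart in these data.

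Promoter windows at the members' start sites were searched for motifs of the loop, and are printed for some of the members. Windows of 300 bases, from 250 before to 50 after each start site, were taken from RefSeq (GRCm38.p6); 9 of 10 members matched, with 11 windows, Per2 being the other member. Each is given 5′ to 3′ on the gene's own strand, in lower case with matches to a searched motif in capitals. The motifs were the E-box CACGTG, the related E′-box CACGTT (capitals AACGTG when it lies on the other strand), the D-box core TTATGTA, the Ror and Nr1d1 response element core TAGGTCA and the cyclic AMP response element core TGACGTC, each searched on both strands.
Cry1, chr10:85185005-85185304, minus strand: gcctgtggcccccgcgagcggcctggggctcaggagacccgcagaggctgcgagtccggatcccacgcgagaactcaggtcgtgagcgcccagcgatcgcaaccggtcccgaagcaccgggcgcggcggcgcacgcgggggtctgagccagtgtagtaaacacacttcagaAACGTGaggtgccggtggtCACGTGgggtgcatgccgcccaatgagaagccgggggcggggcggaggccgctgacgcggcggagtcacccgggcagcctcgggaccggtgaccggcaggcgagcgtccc
Cry2, chr2:92434020-92434319, minus strand: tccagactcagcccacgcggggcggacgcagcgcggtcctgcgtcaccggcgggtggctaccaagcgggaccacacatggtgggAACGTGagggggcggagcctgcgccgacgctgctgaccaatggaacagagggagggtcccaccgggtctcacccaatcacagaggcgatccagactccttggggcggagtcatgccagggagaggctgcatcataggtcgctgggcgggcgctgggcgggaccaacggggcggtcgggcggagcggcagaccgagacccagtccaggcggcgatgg
Per3, chr4:151044616-151044915, minus strand: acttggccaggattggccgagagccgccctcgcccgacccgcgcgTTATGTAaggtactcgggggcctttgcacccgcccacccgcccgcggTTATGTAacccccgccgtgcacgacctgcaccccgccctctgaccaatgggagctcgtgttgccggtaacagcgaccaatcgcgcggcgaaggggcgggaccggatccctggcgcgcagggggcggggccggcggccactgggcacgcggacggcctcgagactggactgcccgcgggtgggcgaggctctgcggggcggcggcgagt
Nr1d1, chr11:98775328-98775627, minus strand: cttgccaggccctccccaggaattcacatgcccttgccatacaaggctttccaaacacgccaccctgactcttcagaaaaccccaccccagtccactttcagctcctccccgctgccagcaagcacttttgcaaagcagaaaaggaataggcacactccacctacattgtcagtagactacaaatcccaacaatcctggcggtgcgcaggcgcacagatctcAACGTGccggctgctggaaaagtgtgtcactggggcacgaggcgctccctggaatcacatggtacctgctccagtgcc
Arntl, chr7:113207261-113207560, plus strand: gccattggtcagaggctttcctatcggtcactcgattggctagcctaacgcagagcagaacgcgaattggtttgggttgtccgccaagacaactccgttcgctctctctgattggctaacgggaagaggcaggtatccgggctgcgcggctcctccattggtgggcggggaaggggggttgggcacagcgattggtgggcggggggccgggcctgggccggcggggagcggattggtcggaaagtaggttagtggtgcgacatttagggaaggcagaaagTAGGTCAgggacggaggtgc
Dbp, chr7:45704997-45705296, plus strand: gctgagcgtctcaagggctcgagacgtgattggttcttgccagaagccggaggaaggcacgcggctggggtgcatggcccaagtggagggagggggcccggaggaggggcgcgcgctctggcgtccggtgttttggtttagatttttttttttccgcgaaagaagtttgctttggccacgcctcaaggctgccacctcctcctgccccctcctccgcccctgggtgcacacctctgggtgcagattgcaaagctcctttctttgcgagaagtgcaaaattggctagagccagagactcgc
Cry1 held an E-box at -60 and an E′-box at -79 (first base of the match, counted from the start site), whereas its paralogue Cry2 held only an E′-box, at -166. Per3 held 2 copies of the D-box core, at -205 and -158, and Nr1d1 held an E′-box at -28. The Arntl window printed held the Ror element core at 31 bases after the start site, while the second Arntl window (chr7:113207215-113207514) held none of the motifs, and the Dbp window held none of the 5 motifs. Of the members not printed, Per1 held an E-box at -166 in one window and the cyclic AMP element core at -132 in another, Hlf held that core at -9 and, overlapping it on the other strand, at -8, and Npas2 held none. Among all 32851 mouse windows of this length, 7.15% held the E-box, 4.68% the E′-box, 2.63% the D-box core, 2.61% the Ror element core and 3.21% the cyclic AMP element core. A match describes letters and says nothing of occupancy, and no match speaks only of this window.

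Sequencing depth was 29505929 to 62237514 counts per library, and lowest in the groups given cisplatin. Levels below are CPM, read counts scaled to library size, after adjustment between libraries by edgeR's trimmed mean of M-values (TMM); a gene is called changed where the adjusted p of edgeR's quasi-likelihood test over all tested genes is below 0.05. Markers matched the labelled tissue: the summed CPM of 5 proximal tubule markers ranged from 7250 to 8037 among saline libraries and from 6560 to 7289 under dichloroacetate, but only from 2081 to 2373 under cisplatin and from 3604 to 3754 under both agents. The 2 distal convoluted tubule markers summed to 422.1 to 527.4 CPM in saline and 62.83 to 77.48 CPM in cisplatin, while 4 lymphocyte markers summed to at most 1.218 CPM in every library. Of 3 macrophage markers, Cd68 had a mean of 2.04 CPM in saline, 33.1 in cisplatin and 4.86 in the combination, while Csf1r had 79.2, 43.4 and 51.0 CPM and Adgre1 1.63, 1.10 and 0.822 CPM. The sum of 2 thick ascending limb markers was 3207 to 3728 CPM in saline and 1536 to 2028 CPM in cisplatin, and that of 3 erythroid markers was 135.6 to 339.6 and 36.47 to 73.45 CPM. Mitochondrial genes took 13.86% to 14.76% of counts in saline and 11.35% to 12.18% in cisplatin. In whole kidney, fewer cells of a type and less RNA per cell cannot be told apart, and the part of these marker changes in the clock genes' values was not tested. With library totals in place of TMM the median log2 fold change of all genes shifted by 0.275 for cisplatin against saline, -0.127 for combination against cisplatin, 0.191 for combination against dichloroacetate and 0.148 for combination against saline. The share of called genes that were higher then went from 49.4% to 73.1%, from 57.3% to 31.1%, from 52.8% to 79.2% and from 51.3% to 74.9% in those comparisons, from 41.3% to 22.4% for dichloroacetate against saline, and from 61.5% to 41.8% for the interaction.

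In saline kidneys the output factors and Nr1d1 were the most abundant members, and Cry1, Arntl and Npas2 the least. On the scale of RPKM, read counts scaled to exon length and library size, which allows genes to be compared, Dbp had 38.1 ± 9.87 (SD, n = 3), Nr1d1 36.0 ± 2.39 and Hlf 21.6 ± 1.18. The ranges of Dbp (27.7 to 47.4) and Nr1d1 (33.4 to 38.1) overlapped, and both lay above Hlf (20.2 to 22.5). The Per genes followed at 6.32 ± 1.67 RPKM for Per2, 6.10 ± 1.30 for Per1 and 4.94 ± 0.831 for Per3, neighbours whose ranges overlapped, and Cry2 had 3.89 ± 0.360. Npas2 (0.654 ± 0.407 RPKM), Arntl (0.55 ± 0.289) and Cry1 (0.532 ± 0.0134) formed the lowest tier, with overlapping ranges. Raw counts behind these low genes were 63 to 403 per library for Cry1, 53 to 360 for Arntl and 20 to 240 for Npas2, so their values carry more counting error than those of Hlf, with 1031 to 7652.

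At 24 h after cisplatin, the clock repressor Cry1 stood far above saline, and the outputs Hlf and Dbp, the receptor Nr1d1 and the repressor Per3 stood below it. Of the 10 members 2 rose (Cry1 and Per1), 4 fell (Hlf, Dbp, Per3 and Nr1d1) and 4 were not called (Arntl, Npas2, Per2 and Cry2). Over all tested genes 60.1% were called in this comparison, 29.7% up and 30.4% down, so the number of members called is near the background. The members' median absolute log2 fold change was 0.934, beside 0.377 over all tested genes, a description only, since the members were chosen with earlier results of these data known. The CPM ranges of the 2 groups did not overlap for 6 of the 10 members, against 64.8% of all tested genes.

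**Figure D1:**
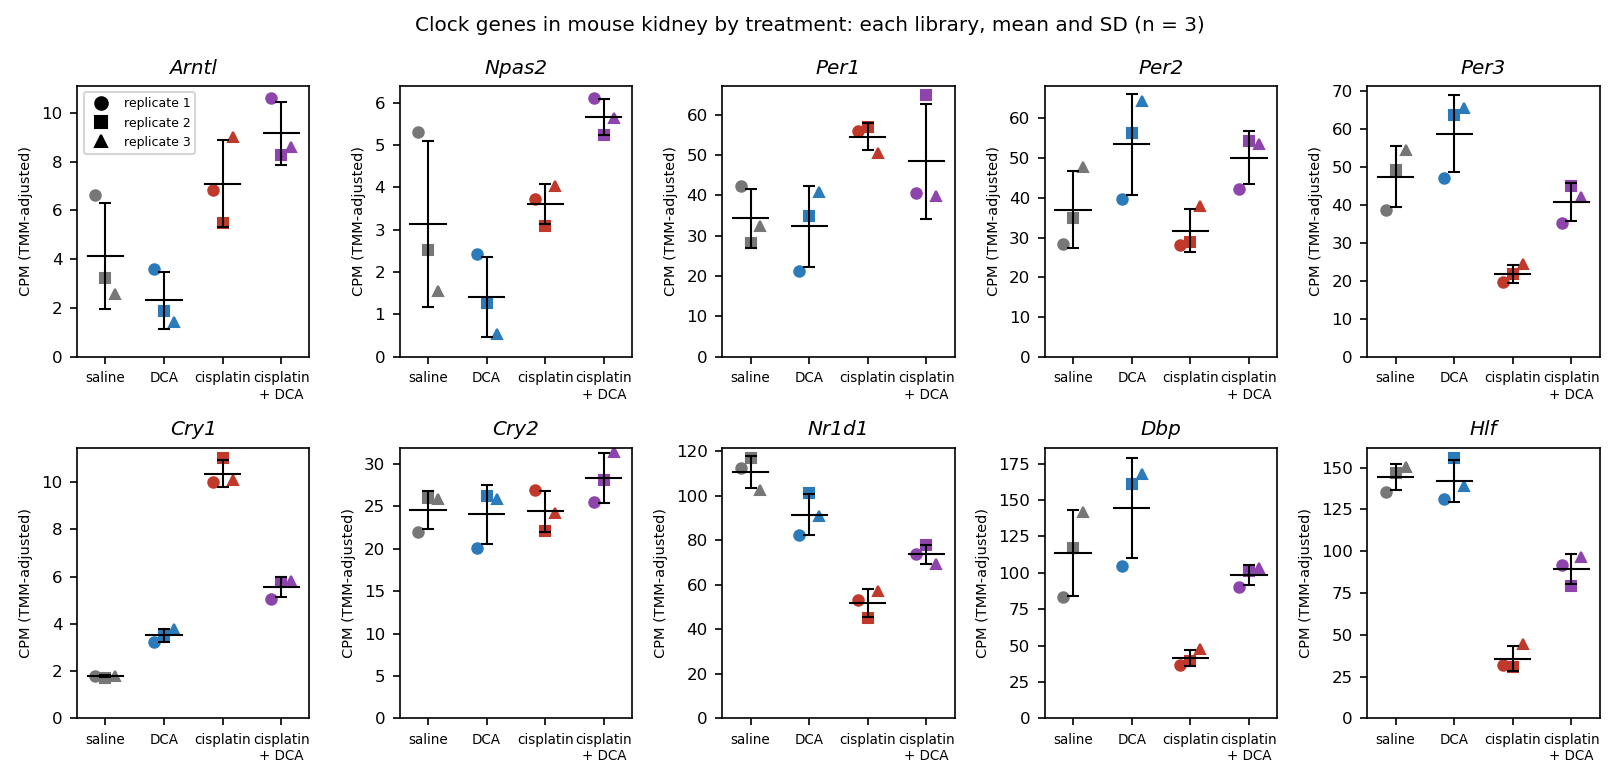
Level of each of the 10 members in every library, in TMM-adjusted CPM on linear axes starting at 0, for saline, dichloroacetate (DCA), cisplatin and cisplatin + DCA. Symbols mark the replicate number, horizontal bars the group mean and error bars the SD (n = 3). The Cry1 values form 4 separate levels, while the Hlf, Dbp, Per3 and Nr1d1 values of the cisplatin group lie below those of the other 3 groups.

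Cry1, the stronger repressor of the cryptochrome pair, lies on chromosome 10 (85131700 to 85185064, minus strand, GRCm38). Its level was 1.794, 1.726 and 1.811 CPM in the saline libraries and 9.997, 11 and 10.07 CPM in the cisplatin libraries. Dichloroacetate libraries had 3.25, 3.507 and 3.801 CPM, and combination libraries had 5.07, 5.787 and 5.818 CPM. The order was therefore saline, dichloroacetate, combination, cisplatin, with no overlap between any groups. Cisplatin raised Cry1 5.83-fold over saline (log2 fold change 2.54, SE 0.10, adjusted p = 2.53e-10), a change exceeded in size by 2.63% of tested genes. Against cisplatin the combination had -0.90 in log2 terms (SE 0.09, adjusted p = 1.573e-05), and against saline 1.65 (SE 0.10, adjusted p = 6.044e-08).

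Cry1 was also the only member called in mice given dichloroacetate alone. It rose 1.97-fold over saline (log2 fold change 0.98, SE 0.11, adjusted p = 0.002488), in a comparison where 0.309% of all tested genes were called and 0.128% rose. The call was lost when the replicate 1 library of all 4 groups was left out, with a log2 fold change of 1.05 and an adjusted p of 0.0704; it held without any single library. The other 9 members were not called. CPM ranges did not overlap for Cry1, which was higher, and Nr1d1, which was lower, where 16% of all tested genes had ranges that did not overlap. Their log2 fold changes ran from -1.09 for Npas2 (SE 0.43, adjusted p = 0.3291) and -0.80 for Arntl (SE 0.36, adjusted p = 0.3986) to 0.53 for Per2 (SE 0.20, adjusted p = 0.2979). The values of Npas2 and Arntl moved with single libraries: without saline replicate 1 they were -0.49 and -0.29, and without dichloroacetate replicate 1 they were -1.79 and -1.32, none of them called. The median absolute log2 fold change of the members was 0.325, against 0.099 over all tested genes. This is a description only, since 9 members were not called and all were chosen with earlier results of these data known.

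The response of Cry1 to cisplatin depended on dichloroacetate. Against dichloroacetate alone the combination had 0.67 in log2 terms (SE 0.10, adjusted p = 0.000107), where cisplatin against saline had 2.54. The test of that difference, the interaction of both agents, gave -1.88 (SE 0.14, adjusted p = 1.799e-05), and this call held in all 20 alternative analyses. Cry1 spans 53.4 kb. The 2184 tested genes spanning 50 to 100 kb had a median log2 fold change of -0.138 with cisplatin, 21.2% of them called up and 40.2% down. The part of gene span in the members' values was not tested.

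Cry2, the paralogue of Cry1, is the member whose group means lay closest together in relative terms, from 24.05 CPM in dichloroacetate to 28.35 CPM in the combination. It had 21.95, 25.94 and 25.85 CPM in saline, 20.08, 26.17 and 25.91 CPM in dichloroacetate, 26.92, 22.08 and 24.25 CPM in cisplatin, and 25.55, 28.12 and 31.37 CPM in the combination. The ranges of all 4 groups overlapped, and no comparison was called: the log2 fold change was -0.01 for cisplatin against saline (SE 0.11, adjusted p = 0.9541), a sign that turned to 0.27 with library totals in place of TMM (adjusted p = 0.038), and 0.22 for combination against cisplatin (SE 0.11, adjusted p = 0.1725). With library totals Cry2 was also called higher in the combination than in dichloroacetate (0.43, adjusted p = 0.00378) and than in saline (0.36, adjusted p = 0.0134). Without replicate 1 of all groups it was called higher in the combination than in cisplatin (0.36, adjusted p = 0.0147). The ratio of Cry1 to Cry2 counts within a library, which no scaling between libraries affects, ran from 0.0666 to 0.0817 among saline libraries, from 0.134 to 0.162 under dichloroacetate, from 0.185 to 0.206 under both agents and from 0.371 to 0.498 under cisplatin. These 4 ranges did not overlap.

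**Figure D2:**
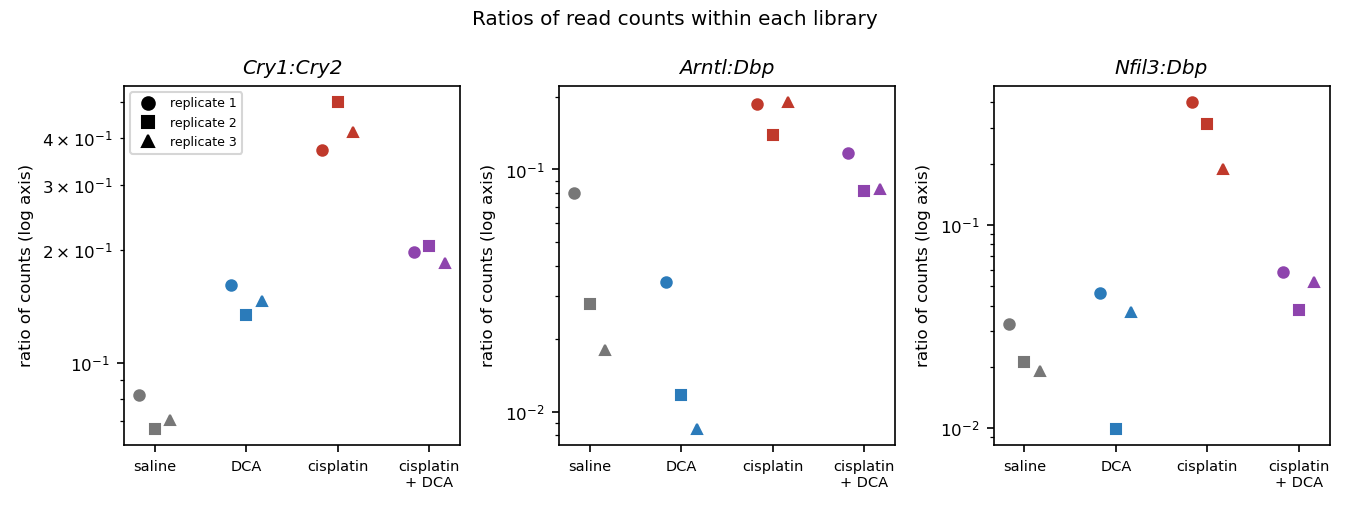
Ratio of raw counts between 2 genes within each library, on log axes, by treatment group (DCA, dichloroacetate), with symbols for the replicate number. Cry1:Cry2 falls into 4 separate ranges, 0.0666 to 0.0817 in saline and 0.371 to 0.498 in cisplatin; Arntl:Dbp spans 0.01804 to 0.07975 in saline; Nfil3:Dbp spans 0.1877 to 0.4003 in cisplatin, above every other library.

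The Per genes, whose proteins carry the cryptochromes into the nucleus, did not move together. Per3 had 38.78, 49.24 and 54.46 CPM in saline, 47.14, 63.75 and 65.45 CPM in dichloroacetate, 19.6, 21.7 and 24.42 CPM in cisplatin, and 35.14, 44.99 and 42.03 CPM in the combination. Every cisplatin library lay below every library of the other groups, and the combination overlapped saline. Per3 fell with cisplatin (log2 fold change -1.11, SE 0.15, adjusted p = 1.977e-05) and was higher in the combination than in cisplatin (0.89, SE 0.15, adjusted p = 0.0004902). Against dichloroacetate the combination was lower, by -0.53 on the log2 scale (SE 0.14, adjusted p = 0.009658), a call lost without combination replicate 1 (-0.43, adjusted p = 0.0505). With library totals in place of TMM the value was -0.33 (adjusted p = 0.0474). The interaction for Per3 was 0.59 (SE 0.20) and missed the threshold (adjusted p = 0.06211). It was called in 8 of 20 alternatives, among them DESeq2 (0.57, adjusted p = 0.0325) and no low-count filter (0.59, adjusted p = 0.0443). It was also called without saline replicate 1 (0.72, adjusted p = 0.0211), cisplatin replicate 3 (0.68, adjusted p = 0.0468), dichloroacetate replicate 3 (0.67, adjusted p = 0.0456) or combination replicate 1 (0.68, adjusted p = 0.0487).

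Per1, which also answers acutely to glucocorticoid and cyclic AMP signals, had 42.43, 28.2 and 32.38 CPM in saline and 56.06, 56.86 and 50.62 CPM in cisplatin. Dichloroacetate libraries had 21.19, 34.9 and 40.87 CPM, and combination libraries had 40.63, 64.91 and 39.9 CPM. The cisplatin libraries lay above all saline libraries, while the combination overlapped each of the other groups. Per1 rose with cisplatin (log2 fold change 0.67, SE 0.23, adjusted p = 0.02138). This call was lost without saline replicate 2 (0.54, adjusted p = 0.0885), saline replicate 3 (0.63, adjusted p = 0.0595) or cisplatin replicate 2 (0.64, adjusted p = 0.0572). Per1 was not called in another comparison. Combination against dichloroacetate was 0.60 for Per1 (SE 0.23, adjusted p = 0.05253) and was called in 5 of 15 alternatives, with a range of 0.33 to 0.80 without single libraries. Combination against saline was 0.50 (SE 0.23, adjusted p = 0.09787), called in 3 of 15. Its interaction was -0.07 (SE 0.32, adjusted p = 0.9127).

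Per2, the Per gene most tied to the core loop, had 28.5, 34.93 and 47.67 CPM in saline, 39.61, 56.41 and 64.46 CPM in dichloroacetate, 28.2, 29.01 and 38.07 CPM in cisplatin, and 42.35, 54.26 and 53.61 CPM in the combination. Its cisplatin libraries overlapped saline and lay below the combination. It was called in combination against cisplatin alone, where it rose (log2 fold change 0.66, SE 0.20, adjusted p = 0.02232). That call was lost without cisplatin replicate 1 (0.56, adjusted p = 0.104), cisplatin replicate 2 (0.59, adjusted p = 0.0837), combination replicate 2 (0.60, adjusted p = 0.075) or combination replicate 3 (0.58, adjusted p = 0.0774). For cisplatin against saline Per2 had -0.22 (SE 0.20, adjusted p = 0.3671), and 0.06 with library totals in place of TMM.

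**Figure D3:**
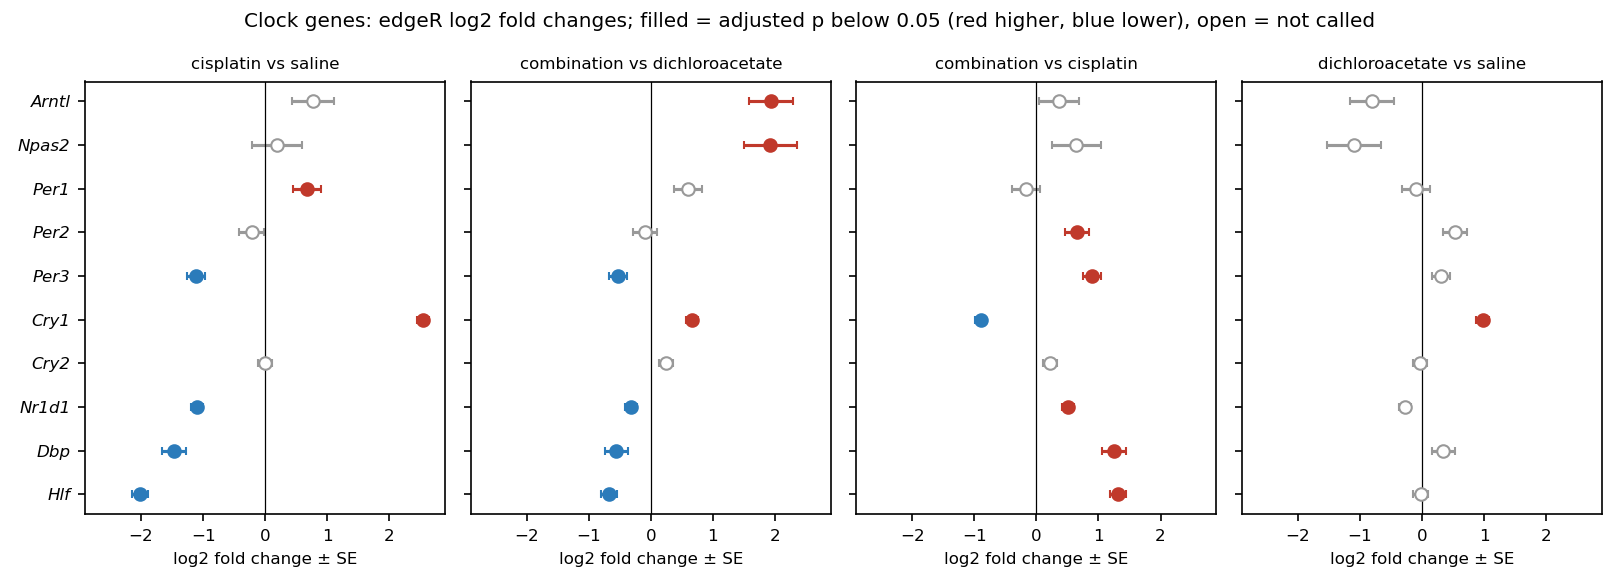
Log2 fold changes of the 10 members in 4 comparisons (edgeR; bars are ± SE), where combination means cisplatin plus dichloroacetate. Filled red points were called higher, filled blue points lower and open grey points not called at an adjusted p of 0.05; Hlf stands at -2.01 in cisplatin against saline and at 1.32 in combination against cisplatin.

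Hlf, a PAR bZIP factor that activates genes of detoxification and transport, fell most among the members. It lies on chromosome 11 (90336536 to 90390895, minus strand) and had 135.3, 146.8 and 150.3 CPM in saline, 131.3, 155.6 and 139.2 CPM in dichloroacetate, 32.01, 30.64 and 44.57 CPM in cisplatin, and 91.95, 79.01 and 96.31 CPM in the combination. Saline and dichloroacetate overlapped, the combination lay below both, and cisplatin lay below the combination. Hlf was 4.03-fold lower in cisplatin than in saline (log2 fold change -2.01, SE 0.13, adjusted p = 1.768e-08) and 2.49-fold higher in the combination than in cisplatin (1.32, SE 0.13, adjusted p = 1.011e-05). The combination remained below saline, at -0.69 (SE 0.12, adjusted p = 0.0005572), and below dichloroacetate, at -0.67 (SE 0.12, adjusted p = 0.00066). The interaction was 1.34 (SE 0.17, adjusted p = 0.0002862), a call held in all 20 alternative analyses. Hlf spans 54.4 kb, in the same span class as Cry1. The median of that class was -0.138 for cisplatin against saline and 0.073 for combination against cisplatin. Hlf had the signs of these medians and Cry1 the opposite signs, and the part of span in either was not tested.

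Dbp, the PAR bZIP factor with the widest daily swing in many tissues, lies on chromosome 7 (45705088 to 45710203, plus strand). It had 83.02, 116.8 and 141.9 CPM in saline, 104.9, 160.8 and 167.7 CPM in dichloroacetate, 36.89, 39.53 and 47.55 CPM in cisplatin, and 90.46, 101.4 and 103.2 CPM in the combination. The cisplatin libraries lay below all others, and the combination lay within the saline range and just below dichloroacetate. Dbp fell 2.75-fold with cisplatin (-1.46 in log2 terms, SE 0.19, adjusted p = 1.955e-05) and was 2.38-fold higher in the combination than in cisplatin (1.25, SE 0.19, adjusted p = 0.0002854). Combination and saline differed by -0.21 (SE 0.19, adjusted p = 0.4002).

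The difference in the Dbp response to cisplatin with and without dichloroacetate was less firm than that of Hlf. Its interaction was 0.91 (SE 0.27, adjusted p = 0.03034) and was called in 13 of 20 alternatives. The call was lost without saline replicate 2 (0.89, adjusted p = 0.0625), saline replicate 3 (0.72, adjusted p = 0.0675), cisplatin replicate 1 (0.81, adjusted p = 0.0904) or cisplatin replicate 2 (0.88, adjusted p = 0.0734). It was also lost without dichloroacetate replicate 1 (0.72, adjusted p = 0.0549), combination replicate 2 (0.89, adjusted p = 0.0626) or combination replicate 3 (0.84, adjusted p = 0.0677). Combination against dichloroacetate was -0.55 for Dbp (SE 0.19, adjusted p = 0.03081), and leaving out dichloroacetate replicate 2 or 3, or any combination library, ended this call, with adjusted p values of 0.0519 to 0.11. So did library totals in place of TMM (-0.36, adjusted p = 0.0997). The exons of Dbp share 539 bases, 18.0% of their length, with Sphk2 on the opposite strand, and the labels name a kit taken here, from its name, as not marking strand and give no strand setting for the counting, so which gene the reads in that stretch came from was not tested. Sphk2 changed less than Dbp, at -0.42 for cisplatin against saline (SE 0.09, adjusted p = 0.001095).

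Nr1d1 (Rev-erb alpha), the repressor of Arntl and Npas2, lies on chromosome 11 (98767932 to 98775333, minus strand). It had 112.5, 117.1 and 102.7 CPM in saline, 82.47, 101.3 and 91.17 CPM in dichloroacetate, 53.39, 45 and 57.15 CPM in cisplatin, and 73.75, 78.08 and 69.29 CPM in the combination. The 4 groups did not overlap, in the order cisplatin, combination, dichloroacetate, saline, although dichloroacetate against saline was not called (log2 fold change -0.27, SE 0.09, adjusted p = 0.2536). Nr1d1 fell 2.14-fold with cisplatin (-1.10 in log2 terms, SE 0.09, adjusted p = 3.552e-07) and was higher in the combination than in cisplatin (0.51, SE 0.09, adjusted p = 0.001141). The combination stayed below saline (-0.59, SE 0.09, adjusted p = 0.0002509). The interaction was 0.78 (SE 0.13, adjusted p = 0.001439) and was called in all 20 alternatives.

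Combination against dichloroacetate was -0.31 for Nr1d1 (SE 0.09, adjusted p = 0.01636). It was not called without dichloroacetate replicate 2 (-0.24, adjusted p = 0.0782), without combination replicate 3 (-0.28, adjusted p = 0.0557), or with library totals in place of TMM (-0.12, adjusted p = 0.316). Nr1d1 shares 263 exonic bases, 8.55% of its exons, with Thra, the thyroid hormone receptor gene on the opposite strand. Thra had -0.83 for cisplatin against saline (SE 0.07, adjusted p = 3.386e-07) and 0.41 for combination against cisplatin (SE 0.07, adjusted p = 0.0007779). It had -0.27 for dichloroacetate against saline (SE 0.07, adjusted p = 0.1456) and -0.16 for combination against dichloroacetate (SE 0.07, adjusted p = 0.09654). Combination against saline was -0.42 for Thra (SE 0.07, adjusted p = 0.0003656). The interaction for Thra was 0.67 (SE 0.10, adjusted p = 0.0006699). The share of Nr1d1 reads that came from Thra transcripts was not tested.

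Arntl and Npas2, the activators that Nr1d1 represses, were the most variable members among the saline and the dichloroacetate mice, and both were higher in the combination than in dichloroacetate. The coefficient of variation in those groups was 52.5% and 49.9% for Arntl and 62.3% and 67.5% for Npas2, but in the combination it was 14% and 7.67%. Arntl lies on chromosome 7 (113207465 to 113314126, plus strand) and had 6.622, 3.242 and 2.559 CPM in saline, 3.617, 1.89 and 1.429 CPM in dichloroacetate, 6.844, 5.469 and 9 CPM in cisplatin, and 10.63, 8.259 and 8.589 CPM in the combination. The dichloroacetate libraries lay below all cisplatin and combination libraries and overlapped saline, and saline replicate 1 alone reached the cisplatin range. Arntl was 3.82-fold higher in the combination than in dichloroacetate (log2 fold change 1.94, SE 0.35, adjusted p = 0.0006424), called in all 15 alternatives. It was also higher in the combination than in saline (1.13, SE 0.33, adjusted p = 0.01558), a call lost without saline replicate 2 (0.97, adjusted p = 0.0667), saline replicate 3 (0.90, adjusted p = 0.0541) or combination replicate 1 (1.02, adjusted p = 0.0583).

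For cisplatin against saline Arntl had 0.77 (SE 0.33, adjusted p = 0.06133) and was not called. It was called in 8 of 15 alternatives, among them library totals in place of TMM (1.04, adjusted p = 0.0184) and the fit without saline replicate 1 (1.28, adjusted p = 0.00361). The interaction was 1.16 for Arntl (SE 0.48, adjusted p = 0.1164), which went to 0.65 without saline replicate 1 (adjusted p = 0.32) and to 1.68, then called, without dichloroacetate replicate 1 (adjusted p = 0.0311). Arntl spans 107 kb. The 1301 tested genes spanning 100 to 200 kb had a median of -0.423 for cisplatin against saline, with 9.99% called up and 59.9% down. For combination against dichloroacetate that median was -0.195, with 12% called up and 37% down. The part of span in Arntl's values was not tested.

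Npas2, the partner that can stand in for Clock, had 5.315, 2.532 and 1.553 CPM in saline, 2.429, 1.269 and 0.5391 CPM in dichloroacetate, 3.72, 3.091 and 4.025 CPM in cisplatin, and 6.111, 5.244 and 5.635 CPM in the combination. The saline libraries covered the whole cisplatin range, and the dichloroacetate libraries lay below every cisplatin and combination library. Npas2 was 3.80-fold higher in the combination than in dichloroacetate (log2 fold change 1.93, SE 0.42, adjusted p = 0.00253), again in all 15 alternatives, and was not called in the other comparisons. Combination against saline was 0.83 (SE 0.39, adjusted p = 0.1074), and was called without saline replicate 1 (1.44, adjusted p = 0.00959) and without replicate 1 of all groups (1.39, adjusted p = 0.0112), while it was 0.54 without saline replicate 3. Combination against cisplatin was 0.64 (SE 0.39, adjusted p = 0.2464), with ranges that did not overlap, and was called in a fit of those groups only (0.62, adjusted p = 0.00348). For cisplatin against saline it had 0.19 (SE 0.40, adjusted p = 0.7007), 0.79 without saline replicate 1 and -0.11 without saline replicate 3. The interaction was 1.74 for Npas2 (SE 0.58) and missed the threshold (adjusted p = 0.0542). It was called without dichloroacetate replicate 1 (2.44, adjusted p = 0.0141), without saline replicate 3 (2.03, adjusted p = 0.02) and with no low-count filter (adjusted p = 0.034), and went to 1.13 without saline replicate 1 (adjusted p = 0.148). Npas2 spans 170 kb.

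Set side by side, the response to cisplatin was smaller in size under dichloroacetate for 7 of the 10 members, a share close to the 71.5% of all tested genes for which this was so, and had the same sign in 9 of 10, against 80.5% of all tested genes. The exceptions in size were Arntl, Npas2 and Cry2. In combination against dichloroacetate 3 members rose (Cry1, Arntl and Npas2), 4 fell (Hlf, Dbp, Per3 and Nr1d1) and 3 were not called, where 40.7% of all tested genes were called. With library totals in place of TMM 5 rose and 2 fell. In that fit 10683 of 20370 tested genes were called, and 79.2% of those were higher. The interaction was called for 4 members, positive for Hlf, Dbp and Nr1d1 and negative for Cry1, where 18.6% of all tested genes were called.

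**Figure D4:**
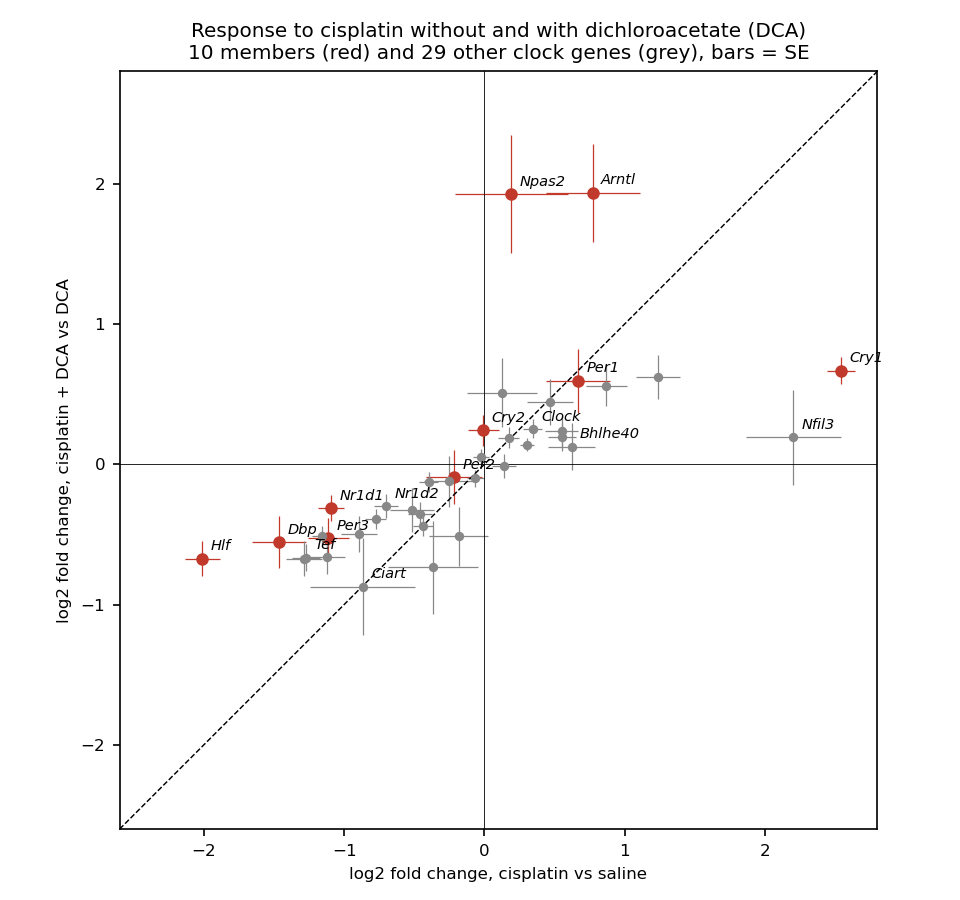
Log2 fold change of 39 clock genes for cisplatin against saline (x axis) and for cisplatin + dichloroacetate (DCA) against DCA (y axis), comparisons that share no library; bars are SE and the dashed line marks equal responses. Red points are the 10 members and grey points the other 29 genes; Cry1 (2.54 and 0.67) and Nfil3 (2.20 and 0.19) lie far below the line on the right, and Arntl (0.77 and 1.94) and Npas2 (0.19 and 1.93) far above it.

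In the combination against cisplatin, 5 members were higher (Hlf, Dbp, Per3, Per2 and Nr1d1), 1 was lower (Cry1) and 4 were not called (Arntl, Npas2, Per1 and Cry2), where 31.6% of all tested genes were called, 18.1% up and 13.5% down. This comparison and cisplatin against saline share the cisplatin libraries, so opposite signs in them are not independent. The combination had not returned to saline for every member: 2 were higher than saline (Cry1 and Arntl), 2 were lower (Hlf and Nr1d1) and 6 were not called, where 40.2% of all tested genes were called. Without replicate 1 of all groups, an omission not planned beforehand, 7 members differed from saline, 4 higher and 3 lower. The share of all tested genes called in that fit is not given here.

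The other clock genes were taken from lists of 39 genes in all, members included, that cover the loop, its kinases and ubiquitin ligases, and known clock-controlled genes. With cisplatin 11 of the 39 rose, 15 fell and 13 were not called, a share called near the 60.1% of all tested genes. With dichloroacetate alone Cry1 was the only gene of the 39 called, where 0.309% of all tested genes were called. In combination against cisplatin 14 rose, 5 fell and 20 were not called, against 31.6% of all tested genes called. The interaction was called for 10, positive in 8, against 18.6% of all tested genes. The median absolute log2 fold change of the 39 was 0.551 with cisplatin, against 0.377 over all tested genes. This too is a description only, since the lists were chosen with earlier results of these data known.

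Among the D-box factors the activators and the repressor moved in opposite directions. Tef, the third PAR bZIP activator, fell from 360.9, 414.6 and 419.9 CPM in saline to 157.8, 157.3 and 180.0 CPM in cisplatin (log2 fold change -1.27, SE 0.10, adjusted p = 9.954e-08) and was higher in the combination than in cisplatin (0.79, SE 0.10, adjusted p = 5.169e-05). Nfil3, the repressor, had 2.68, 2.475 and 2.703 CPM in saline, 4.857, 1.592 and 6.2 CPM in dichloroacetate, 14.77, 12.42 and 8.925 CPM in cisplatin, and 5.265, 3.858 and 5.391 CPM in the combination. Every cisplatin library exceeded every other library. Nfil3 rose 4.59-fold with cisplatin (log2 fold change 2.20, SE 0.34, adjusted p = 7.729e-05) and was lower in the combination than in cisplatin (-1.32, SE 0.32, adjusted p = 0.007197). The ratio of Nfil3 to Dbp counts ran from 0.01905 to 0.03228 among saline libraries, from 0.009903 to 0.04632 under dichloroacetate, from 0.03803 to 0.05821 under both agents and from 0.1877 to 0.4003 under cisplatin. All 4 of these D-box factors were called in cisplatin against saline, in combination against cisplatin and for the interaction. Of all tested genes 60.1%, 31.6% and 18.6% were called in these comparisons.

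In the rest of the loop the changes were smaller. Nr1d2, the paralogue of Nr1d1, fell with cisplatin (log2 fold change -0.70, SE 0.09, adjusted p = 1.016e-05) and was higher in the combination than in cisplatin (0.59, SE 0.09, adjusted p = 0.0001969). Clock, the usual partner of Arntl, rose with cisplatin (0.34, SE 0.07, adjusted p = 0.0006685). The E-box repressors Bhlhe40 (0.62, SE 0.17, adjusted p = 0.005303) and Bhlhe41 (0.47, SE 0.16, adjusted p = 0.02494) rose with cisplatin. Bhlhe40 was lower in the combination than in cisplatin (-0.52, SE 0.17, adjusted p = 0.02903). Ciart, another repressor of the loop, had -0.87 with cisplatin (SE 0.37, adjusted p = 0.05867).

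Among the listed genes outside the loop, the largest changes with cisplatin were in Slc9a3, the sodium-proton exchanger of the proximal tubule, and Wee1, a kinase that holds back mitosis. Slc9a3 had -1.28 with cisplatin (SE 0.13, adjusted p = 1.173e-06) and 0.71 in combination against cisplatin (SE 0.13, adjusted p = 0.0008006), and it is itself a gene of the proximal tubule, whose markers were lower as given above. Wee1 rose by 1.24 on the log2 scale (SE 0.16, adjusted p = 1.449e-05). Usp2, a clock-driven deubiquitinase, was 0.70 higher in the combination than in cisplatin (SE 0.13, adjusted p = 0.0009016).

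Mice of the same group differed in the clock genes in a shared pattern. Dbp, Per2 and Per3 each had their lowest value in replicate 1 in all 4 groups, and Arntl and Npas2 had their highest value in replicate 1 in 3 of the 4 groups, the exception being cisplatin. In the saline group Npas2 spanned 3.42-fold and Arntl 2.59-fold between libraries, and in the dichloroacetate group 4.51-fold and 2.53-fold. Across the 12 libraries the deviations from the group mean of log2 CPM had a Pearson r of 0.958 between Dbp and Per2, 0.955 between Dbp and Per3, and 0.938 between Arntl and Npas2. The r was -0.794 between Arntl and Dbp and -0.837 between Npas2 and Dbp. The points of each pair share library and depth, and the values are a description. The ratio of Arntl to Dbp counts shows the pattern within single libraries: 0.07975, 0.02775 and 0.01804 in saline, and 0.03449, 0.01176 and 0.008518 in dichloroacetate. In cisplatin it was 0.1855, 0.1383 and 0.1893, and in the combination 0.1175, 0.08141 and 0.08323, so every library of the groups given cisplatin exceeded every library of the groups without it. The hours at which these mice were killed do not appear in the sources used here, and their part in the pattern was not tested.

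**Figure D5:**
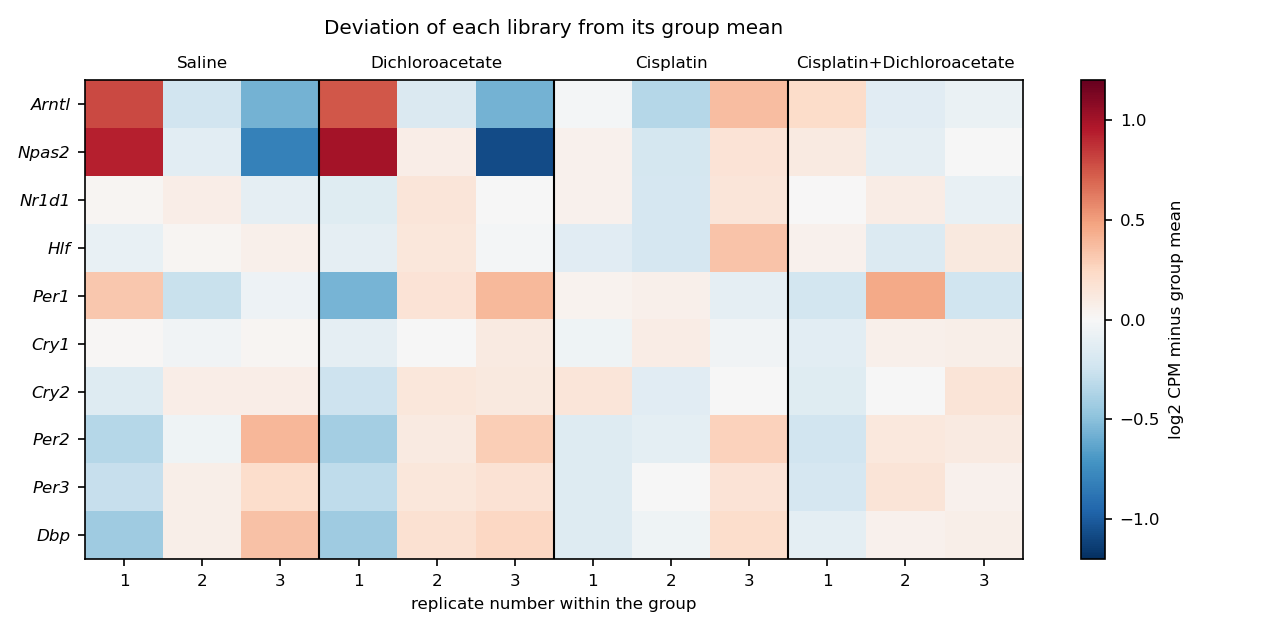
Deviation of log2 CPM from the group mean for the 10 members (rows) in the 12 libraries (columns, by group and replicate number). Red is above and blue below the group mean; the replicate 1 libraries are blue for Per2, Per3 and Dbp in all 4 groups, and red for Arntl and Npas2 in saline and dichloroacetate.

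The deviations of the other output and loop genes lay further from those of Dbp, with an r of 0.535 for Hlf, 0.45 for Cry1 and 0.259 for Nr1d1 over the 12 libraries. Cry1 and Nr1d1 had -0.177 in their deviations but -0.954 in log2 CPM itself, a value that carries the differences between groups. An omission that was not planned beforehand left out replicate 1 of all groups, which stood apart in Dbp, Per2 and Per3. Cisplatin against saline then gave -1.57 for Dbp (adjusted p = 9.07e-06) and 1.31 for Arntl (adjusted p = 0.00181), and 7 members were called, 3 up and 4 down. The share of all tested genes called in that fit is not given here. These libraries were singled out by the members' own values, so nothing further is read from the change.

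The genes whose log2 CPM followed a member most closely over the 12 libraries, among 12529 tested genes with a mean of at least 5 CPM, were sought for Cry1, Arntl and Dbp. For Dbp the closest was another member, Per3 (Pearson r = 0.992), followed by Gm7097 (0.987) and Slc16a9 (0.985), a monocarboxylate transporter family gene. For Cry1 they were Sept2 (0.983), Smad2 (0.977), a transducer of TGF-beta signals, and Anp32b (0.976). For Arntl they were Mlph (0.957), Llgl2 (0.949) and Clip2 (0.949), and no clock gene was among them. Npas2 had an r of 0.958 with Arntl, but its mean lay below 5 CPM, which kept it out of this search. The 12 libraries fall into 4 groups, so these values carry the differences between groups, and no function is read from them.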

How the data were processed

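RNA-seq libraries were made from total RNA with a TruSeq kit, taken from its name as not marking strand. Per the submitters' processing notes, the tools were Trimmomatic, TopHat, Cufflinks, HTSeq, bedtools and DESeq, with genome build mm10; the sources used here name no versions or settings. The authors deposited raw counts per gene and a second table of normalised values (signal), which equal the counts divided by a size factor per library. Replicates are separate mice, per the labels. Symbols came from GENCODE M21 for 27955 of 28991 genes; 1036 had none.

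Counts were fitted with edgeR 4.0.16 (R 4.3.3) on 20370 genes kept by its low-count filter (count minimum 10), with TMM scaling, all 12 libraries in a single quasi-likelihood fit of 4 group means (8 residual degrees of freedom, common biological coefficient of variation 0.0917), and Benjamini-Hochberg adjustment over all tested genes. CPM values use TMM-scaled library sizes; log2 CPM uses a prior count of 2. Comparisons were cisplatin, dichloroacetate and the combination against saline, the combination against each agent, and the interaction. Alternatives used DESeq2 1.42.0, limma 3.58.1 on the authors' normalised values, other scalings and filters, a replicate block and omitted libraries. Leaving out replicate 1 of all groups was not planned beforehand. No pair of replicate libraries agreed within sampling noise (chi-square per degree of freedom 4.4 to 26.3 in 12 pairs). The members and lists were chosen with earlier results of these data known. Named genes are the 10 members, set loop genes (Clock, Nr1d2, Tef, Nfil3, Bhlhe40, Bhlhe41, Ciart, and another that is not reported here), up to 4 called list genes per comparison with the largest change and at least 1 CPM, and the 3 genes most like Cry1, Arntl and Dbp; Thra and Sphk2 were named for their overlap.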

Additional observations from a re-analysis of the deposited data

Results flagged for a closer look

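For 4 members and 6 other clock genes the response to cisplatin differed with dichloroacetate, by edgeR's test of the interaction (response with dichloroacetate minus response without, log2). Among members Cry1 had -1.88 (adjusted p = 1.799e-05), Hlf 1.34 (adjusted p = 0.0002862), Nr1d1 0.78 (adjusted p = 0.001439) and Dbp 0.91 (adjusted p = 0.03034). Among the others Nfil3 had -2.01 (adjusted p = 0.0108), Btrc, a ubiquitin ligase subunit that targets Per proteins, 0.64 (adjusted p = 0.001262), Tef 0.61 (adjusted p = 0.007252) and Slc9a3 0.61 (adjusted p = 0.02701). Nr1d2 had 0.40 and Scnn1a, a subunit of the epithelial sodium channel, 0.38. A difference of this kind was called for 18.6% of all tested genes.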

How the results depend on the processing

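Of 950 member values recomputed under alternatives, 854 kept their direction and side of the threshold, 28 lost a call, 42 gained one and 26 turned sign, all of the last in comparisons not called at first. Cry1, Hlf and Nr1d1 kept their interaction calls in all alternatives run. Genes called for dichloroacetate against saline numbered 63, and 134 with library totals only, 119 with no low-count filter, 117 with the replicate block, 336 with DESeq2 and 15 in a fit of only those groups; leaving out single libraries gave 16 to 126, and leaving out replicate 1 of all groups 7. That last omission also gave 3371 genes for combination against cisplatin (6441 at first; 4683 to 6488 without single libraries) and 1103 for the interaction (3783 at first; 2692 to 4213). Members called for combination against saline went from 4 to 7 with library totals only, with the replicate block and without replicate 1 of all groups (3 to 6 without single libraries). Over all tested genes 8189 were called in that comparison at first and 9990 with library totals only. With the block and without replicate 1 of all groups the number stayed within 1.5-fold of 8189. Whether the added member calls exceed the change over all genes was not tested. Members called for dichloroacetate against saline went from 1 to 2 with the block and to 0 without replicate 1 of all groups.

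Sign changes in log2 fold change were as follows. With library totals only, cisplatin against saline was 0.27 for Cry2 and 0.064 for Per2, and combination against dichloroacetate was 0.103 for Per2; a fit of saline and cisplatin only gave 0.009 for Cry2. Without replicate 1 of all groups, dichloroacetate against saline was 0.008 for Cry2 and 0.325 for Per1. Omitting single libraries gave -0.085 to 0.059 for Cry2, -0.373 to 0.002 for Per2 and -0.106 to 0.793 for Npas2 with cisplatin; -0.11 to 0.084 for Cry2, -0.092 to 0.033 for Hlf and -0.299 to 0.142 for Per1 with dichloroacetate; -0.271 to 0.064 for Per2 in combination against dichloroacetate; and interactions of -0.341 to 0.133 for Per1 and -0.093 to 0.282 for Per2. The cause was not tested.

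Replicate numbers did not pair the mice over all genes: 4 of 18 same-numbered pairs had deviations correlated above 0.1 (median 0.003), and 6 of 12 libraries were closest to their own number. Over the 10 members 13 of 18 pairs were above 0.1 (median 0.432, other pairs -0.255), and 8 of 12 libraries were closest to their own number, a hint from the data and not from the design. Deviations cancel within a group, so the value of the other pairs is tied to that of the same-numbered pairs. Several members also varied together, as given above. With the replicate block, calls were added for Arntl with cisplatin (0.848), Per2 with dichloroacetate (0.533), Npas2 (0.938), Per2 (0.46) and Per3 (-0.214) in combination against saline, and the interactions of Npas2 (1.747) and Per3 (0.586). Low counts limit Npas2, with 20 reads in its shallowest value.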
